A study of Mus musculus with 72 samples.

Results

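Blood was compared between mice exposed to 0.25 Gy of neutrons and controls of the same day, 3 days after the exposure. The samples were chosen by their titles: 6 arrays labelled as 0.25 Gy neutrons at day 3 and 5 labelled as controls at day 3, so 11 of the 72 arrays of the series. The neutron mice received a single whole-body dose from a beam built to resemble the neutron spectrum of an improvised nuclear device, which also carries a gamma-ray component, and the controls were not irradiated. All were males, and the study's methods, which describe mice of day 1 and day 7 only, give the strain as C57BL/6, young adults and sham-treated controls. Each array held the whole blood RNA of 1 mouse, taken by cardiac puncture into a stabilising solution, and measured as fluorescence on a 1-colour Agilent array. For comparison, 5 mice given 1 Gy of x-rays at day 3 were used, as were 0.25 Gy neutron mice and their controls at day 1 (6 and 5) and day 7 (5 and 6). The markers of whole blood were present: the 28 B cell markers on the array were well above background in all controls, and the erythroid enzyme Alas2 was far above the array median in every mouse.

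Neutrons deposit their energy in dense tracks, and the resulting breaks in DNA are hard to repair. Among blood cells, B lymphocytes die readily after irradiation through the p53 pathway. Red cells and platelets carry no nucleus, so their RNA reports on how recently they left the marrow: young red cells (reticulocytes) still hold the messages for heme, membrane and mitochondrial proteins and lose them as they mature. In whole blood, fewer cells of a type and less RNA per cell cannot be told apart.

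At day 3, B cell genes and immunoglobulin segments were lower in the neutron mice, while a group of red cell membrane, heme and mitochondrial genes was higher. Levels are given as log2 of the intensity relative to the median of the detected probes of the same array, and differences as log2 fold change, neutrons minus controls, with the standard error (SE). A gene was called at an unadjusted p under 0.001 and a Benjamini-Hochberg adjusted p under 0.05, both from limma. Of 10863 genes tested, 127 (1.17%) were called, 59 higher (0.543%) and 68 lower (0.626%), and 195 (1.8%) had an unadjusted p below 0.001. The 127 had the same adjusted p of 0.0492, just inside the limit, and absolute log2 fold changes from 0.78 to 2.80. The median over all genes tested was 0.03. All 6 neutron mice lay above all 5 controls for 214 genes (1.97%) and below them for 461 (4.24%).

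The calls as a set rested on each of several mice. Without control replicate 1, 3, 4 or 5, or without neutron replicate 3, 4, 5 or 6, no gene was called, with 74 to 143 genes left at an unadjusted p below 0.001; without control replicate 2 the count was 279, and without neutron replicate 1 or 2 it was 250 or 245. In every one of those fits the 127 genes kept their sign and an unadjusted p below 0.05. For 122 of the 127 the groups did not overlap, so leaving out a mouse could not change their sign. The split of the calls depended on the scaling: 46.5% were higher with the median as reference, 34.5% with quantile normalization, 26.9% with the 75th percentile and 87.5% with the spike-in probes, which moved the median of all genes to -0.29.

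Scanning and liver RNA moved with the groups. All 5 controls and neutron replicates 1 and 2 were scanned on 1 day (scan day 1), neutron replicates 3, 5 and 6 on scan day 2 and neutron replicate 4 on scan day 7. Within scan day 1, with 5 controls and 2 neutron mice, no gene was called, 1 had an unadjusted p below 0.001 and 715 below 0.05. The 127 called genes kept their sign there, at a median of 0.69 of the whole difference. For the 122 of them without overlap between the groups, that sign could not change. The 31 liver transcripts on the array summed to 32.0, 4074, 1510, 60.2 and 46.7 times the array median in the controls and to between 1275 and 9974 (median 3427) in the neutron mice. Among them, albumin (Alb) was at a log2 level of -3.83, 8.43, 7.17, 1.66 and -0.54 in the controls and between 7.19 and 9.91 in the neutron mice. With each mouse's liver level as a covariate, an analysis added after the data were seen, no gene was called, 14 had an unadjusted p below 0.001 and the 127 kept their sign. The share of spots well above background was 57.3% ± 3.58 (SD, n = 6) in the neutron mice and 58.1% ± 3.82 (SD, n = 5) in the controls (exact permutation test, 2-sided, p = 0.738).

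B cells carry a receptor built from rearranged immunoglobulin segments, and the array holds probes for single variable (V) segments. Their probe sequences are shown because many of the largest decreases were these segments and because some probes share runs of bases. The first pair are heavy-chain V segments with the 12 bases they share in capitals, the second pair heavy-chain segments with the 31 bases they share in capitals, the fifth a kappa V segment with its Tyr-Tyr-Cys codons in capitals, and the last the constant region of the delta heavy chain (IgD). Sequences and positions are those of the array design, on mouse build mm9.
ENSMUST00000103515, chr12:116153003-116153062, minus strand: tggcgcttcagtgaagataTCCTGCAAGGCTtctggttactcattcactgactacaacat
ENSMUST00000193893, chr12:115821969-115822028, minus strand: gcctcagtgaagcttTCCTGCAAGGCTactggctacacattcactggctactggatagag
ENSMUST00000103522, chr12:116383750-116383809, minus strand: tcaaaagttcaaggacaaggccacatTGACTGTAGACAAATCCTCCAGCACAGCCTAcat
ENSMUST00000103538, chr12:116842179-116842238, minus strand: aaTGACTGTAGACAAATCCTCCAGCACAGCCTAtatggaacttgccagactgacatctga
ENSMUST00000103305, chr6:67710344-67710403, plus strand: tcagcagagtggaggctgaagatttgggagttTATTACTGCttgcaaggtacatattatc
ENSMUST00000192250, chr12:114654277-114654336, minus strand: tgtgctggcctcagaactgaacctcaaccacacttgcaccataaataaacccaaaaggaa

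IgD, the constant region of naive B cells (ENSMUST00000192250), was at log2 levels of 4.92, 4.50, 4.65, 4.90 and 4.76 in the controls and from 2.34 to 3.83 (median 3.26) in the neutron mice. The groups did not overlap, and the transcript fell by 1.58 ± 0.29 (SE) on the log2 scale, which is 2.99-fold (limma, adjusted p = 0.0492). IgM (ENSMUST00000103426), which the same naive cells carry, lay from 3.55 to 4.19 in the controls and from 2.03 to 3.70 in the neutron mice. Its difference of -1.21 ± 0.29 (SE) missed the limit (adjusted p = 0.0559), and 1 or more mice of each group overlapped. The constant regions of the switched classes did not follow: IgG2a (ENSMUST00000195192) differed by 0.59 ± 0.43 (SE; adjusted p = 0.403) and IgG2b (ENSMUST00000103418) by 0.32 ± 0.44 (SE; adjusted p = 0.665), and both were negative within scan day 1, at -0.25 and -0.50. The plasma cell genes gave no call among 6 tested; Jchain, the joining chain of secreted IgM and IgA, differed by 0.28 ± 0.39 (SE), Mzb1, an antibody-secretion chaperone, by -0.65 ± 0.21 and the transcription factor Irf4 by -0.67 ± 0.19.

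Of 114 immunoglobulin probes on the array, a set drawn from the files' descriptions after the values had been seen, 63 were tested, 60 were negative and 19 were called lower. The 56 left after some probes were set apart as constant regions or chain complexes were all negative, with a median of -1.0 and a range from -1.53 to -0.70. They were kept as variable or other, and it was not checked that each is a V segment. Of these, 17 were called and 47 had all neutron mice below all controls, against 0.626% and 4.24% of all genes. Those of the heavy-chain locus stood at a median of -1.19 (12 of 18 called), of the kappa locus at -0.95 (5 of 34) and of the lambda locus at -0.89 (0 of 4). The probes are not independent measurements: 17 of the 56 share a run of 20 bases with another.

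The segments whose sequences are printed above were at similar fold changes. ENSMUST00000103515 was at -0.85, -1.23, -1.12, -0.54 and -0.99 in the controls and from -2.91 to -1.71 (median -2.25) in the neutron mice, and ENSMUST00000193893 from -1.29 to -0.72 and from -3.21 to -1.74. ENSMUST00000103522, which the files do not describe, and ENSMUST00000103538, its partner in the 31 shared bases, fell by 1.34 ± 0.26 (SE) and 1.27 ± 0.22 (SE). No mouse of one group reached the range of the other in these 4 probes or in the kappa segment ENSMUST00000103305, which fell by 1.30 ± 0.27 (SE; limma, adjusted p = 0.0492 for each).

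All 27 tested B cell markers were lower in the neutron mice, with a median of -1.0 and a range from -1.31 to -0.29, and 7 were called (0.626% of all genes were called lower). In 14 the groups did not overlap (4.24% of all genes lay lower without overlap). The mean log2 level over the 27 was between 2.71 and 3.02 in the controls and between 1.43 and 2.42 in the neutron mice, with no overlap. The median was -0.49 within scan day 1 and -1.21 against the neutron mice of the other scan days, and -0.90 with the liver covariate, where 27 of 27 stayed negative and 19 had an unadjusted p below 0.05 (2.93% of all genes were lower at that limit).

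Fcer2a, the low-affinity IgE receptor CD23 of mature B cells, was at 1.82, 1.92, 2.05, 1.97 and 2.31 in the controls. In the neutron mice it ranged from -0.16 to 1.33 (median 0.75). The 2 neutron mice of scan day 1 were the highest, still below every control, and the gene fell by 1.30 ± 0.27 (SE). Cd72, a receptor that restrains signalling, was at 2.50, 2.00, 2.28, 2.39 and 2.47 in the controls and from 0.60 to 1.83 (median 1.05) in the neutron mice, and fell by 1.22 ± 0.23 (SE). Ebf1, a transcription factor that commits progenitors to the B lineage, was at 1.22, 1.25, 1.35, 1.53 and 1.39 in the controls, the tightest of these groups, and from -0.40 to 0.72 (median 0.36) in the neutron mice. It fell by 1.12 ± 0.22 (SE).

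The adaptor Blnk, which links the B cell receptor to its downstream kinases, was at 5.05, 4.90, 5.13, 5.18 and 4.84 in the controls and from 3.31 to 4.57 (median 4.03) in the neutron mice. Ms4a1, the surface protein CD20, was at 5.16, 5.38, 5.62, 5.68 and 5.33 against 3.83 to 4.82 (median 4.49). Blnk fell by 1.09 ± 0.23 (SE) and Ms4a1 by 1.06 ± 0.23 (SE), and neither overlapped. The receptor kinase Blk fell by 1.15 ± 0.24 (SE) and the follicle-homing receptor Cxcr5 by 1.01 ± 0.20 (SE), the only chemokine receptor called among 16 (0.626% of all genes were called lower). Ly6d, a surface marker of the B lineage outside that list, fell by 1.19 ± 0.26 (SE; limma, adjusted p = 0.0492 for each of these genes).

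Cd79a, a signalling chain of the B cell receptor, did not pass. It was at 4.83, 5.20, 5.23, 5.17 and 5.17 in the controls and from 3.12 to 4.79 in the neutron mice, a difference of -1.02 ± 0.28 (SE; adjusted p = 0.0772), although the groups did not overlap.

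**Figure D1:**
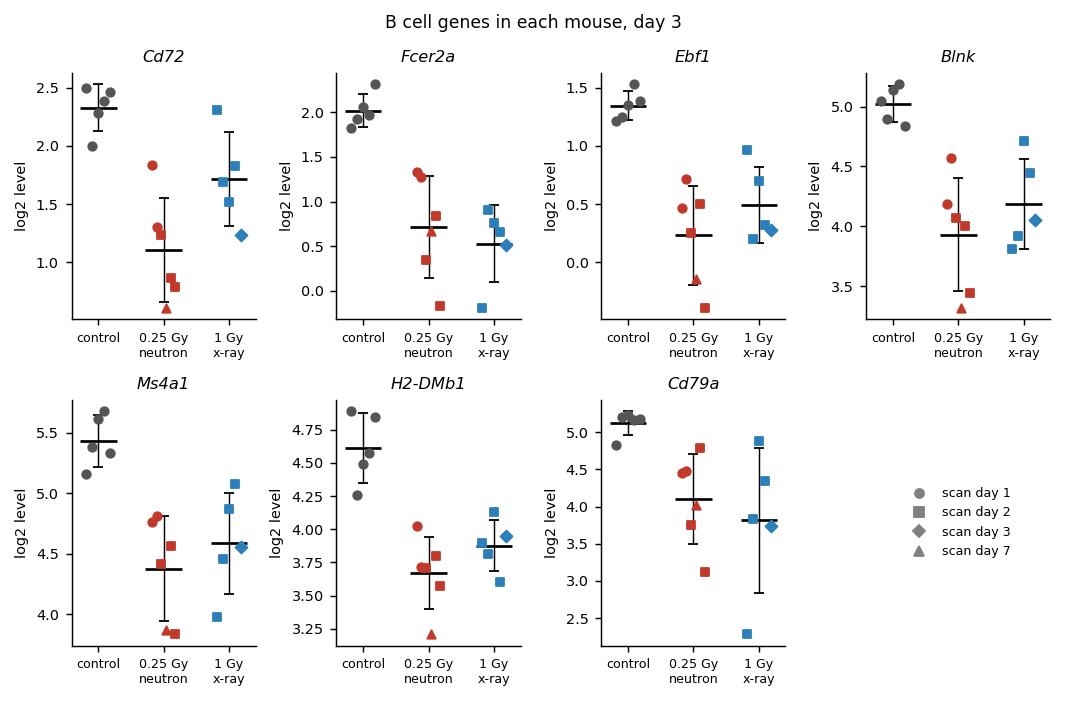
Log2 level (relative to the array median) of 7 B cell genes in each day 3 mouse, for 5 controls, 6 neutron mice and 5 x-ray mice; marker shape gives the scan day, the line the mean and the bar the SD. In each panel all 6 neutron mice lie below all 5 controls, and the scan day 1 neutron mice lie in the upper part of their group in most panels.

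B cells, dendritic cells and monocytes share the genes of antigen presentation by MHC class II. The 11 tested class II genes and their regulator were all negative, with a median of -0.94 and a range from -1.05 to -0.57, and 6 did not overlap (4.24% of all genes lay lower without overlap). H2-DMb1, a chain of the peptide-loading chaperone, was the 1 called (0.626% of all genes were called lower). It was at 4.89, 4.26, 4.49, 4.57 and 4.84 in the controls and from 3.21 to 4.02 (median 3.71) in the neutron mice, and fell by 0.94 ± 0.19 (SE; limma, adjusted p = 0.0492). The median was -0.46 within scan day 1 and -0.86 with the liver covariate.

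Other leukocytes gave almost no calls. Of 31 T cell markers none was called and 29 were negative, with a median of -0.31; Bcl11b, a T lineage transcription factor, differed by -0.67 ± 0.21 (SE; adjusted p = 0.0892). No call was made among 21 NK and cytotoxic genes (median 0.11), 25 monocyte markers (0.27), 12 dendritic cell markers (-0.10) or 36 interferon-stimulated genes (0.19). With the scaling on spike-in probes the medians of NK, monocyte and interferon genes turned to -0.18, -0.01 and -0.10. Within scan day 1 the monocyte and interferon medians were -0.16 and -0.03. With the liver covariate, the medians were -0.18 for T cell markers, 0.38 for NK and cytotoxic genes, 0.41 for interferon genes and 0.69 for monocyte markers, of which 7 were higher at an unadjusted p below 0.05 (6.25% of all genes). Mature neutrophil genes stood at a median of 0.62 with 20 of 23 positive and none called, and neutrophil granule genes at 0.31. Within scan day 1 these medians were 0.41 and 0.04, and with the liver covariate 1.05 and 1.17, where 16 of 23 and 6 of 15 were higher at an unadjusted p below 0.05. The mean level of the mature neutrophil genes was 2.49 in control replicate 1 and between 1.15 and 1.38 in the other 4 controls, against 1.16 to 2.84 in the neutron mice. The formyl peptide receptor Fpr1 differed by 0.77 ± 0.30 (SE; adjusted p = 0.139), and the granule protein Chil3 by 1.36 ± 0.66 (SE; adjusted p = 0.223).

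A pair of mast cell proteases, which basophils also express in part, were higher. Mcpt4, a mast cell chymase, was at -0.63, -4.28, -1.77, -3.17 and -2.21 in the controls and from -0.07 to 1.25 (median 0.31) in the neutron mice, and rose by 2.80 ± 0.53 (SE), or 6.95-fold, the largest change among the called genes. Cpa3, the mast cell carboxypeptidase, was at -0.26, -1.43, -0.71, -1.10 and -1.10 against 0.02 to 1.53 (median 0.84) and rose by 1.67 ± 0.30 (SE; limma, adjusted p = 0.0492 for both). The controls spread widely for Mcpt4, and all 6 neutron mice were above them. Within scan day 1 the differences were 2.66 and 1.49, and with the liver covariate 3.92 and 2.15. Of the 12 eosinophil and basophil markers, 7 were positive and 5 negative, with a median of 0.10 and a lowest value of -0.98. Cpa3 was the 1 called (0.543% of all genes were called higher). In the other direction, 1 marker had an unadjusted p below 0.001 without being called (1.8% of all genes passed that limit in either direction). All neutron mice were below all controls in 1 marker (4.24% of all genes).

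**Figure D2:**
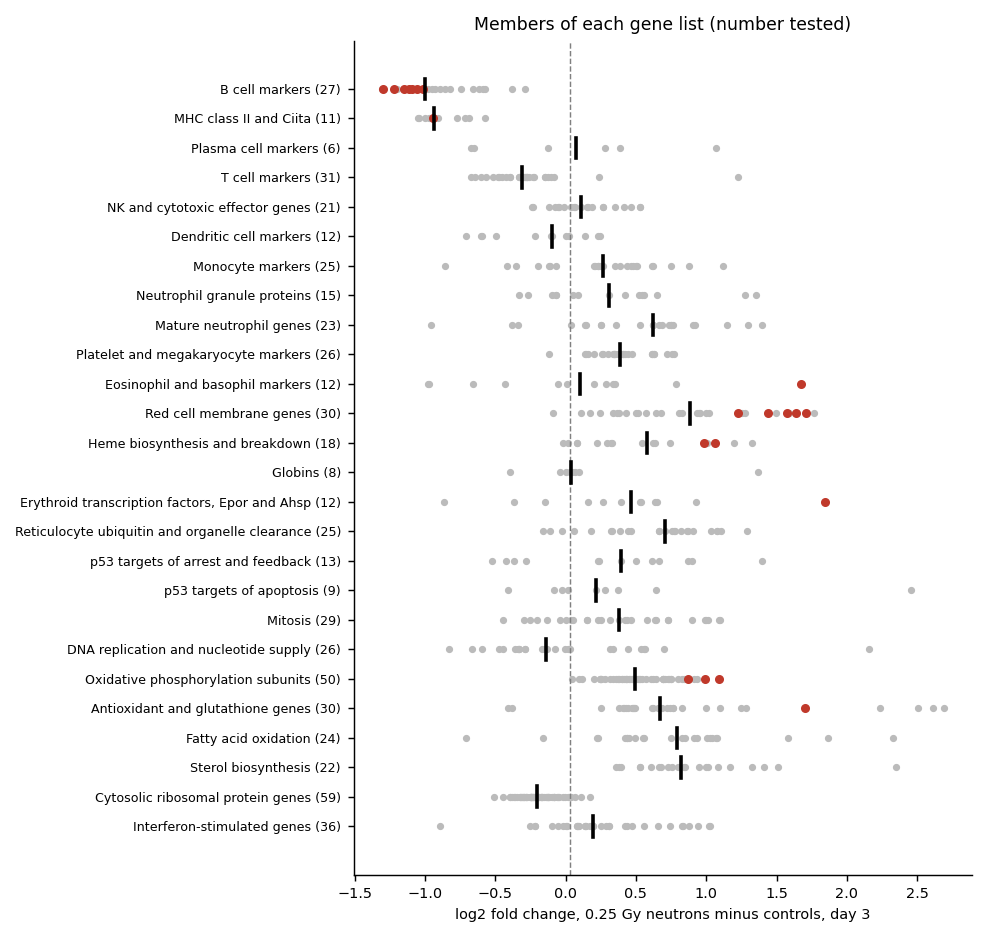
Log2 fold change at day 3 (neutrons minus controls) of each tested member of 26 gene lists, with the number tested in brackets; grey dots are members not called, red dots members called, the black bar the list's median and the dashed line the median of all genes tested (0.03). B cell markers lie on the negative side and red cell membrane genes, with 5 called, mostly on the positive side.

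Several red cell genes were higher, though not the most abundant of them. Of the 30 red cell membrane genes, 29 were positive, with a median of 0.88, and 5 were called (0.543% of all genes were called higher). The mean log2 level over the 30 lay between 0.89 and 1.44 in the controls and between 1.32 and 2.79 in the neutron mice, so that the groups overlapped. The median was 0.47 within scan day 1 and 1.01 on the other scan days, and 0.90 with the liver covariate, where 30 of 30 were positive and 14 had an unadjusted p below 0.05 (6.25% of all genes were higher at that limit).

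Trim10, a RING-finger protein of maturing erythroblasts, was at 2.59, 3.37, 2.73, 3.01 and 2.84 in the controls and from 3.53 to 5.03 (median 4.72) in the neutron mice, and rose by 1.64 ± 0.28 (SE). Rhd, the Rhesus blood group protein, was at 1.02, 1.63, 1.25, 1.66 and 0.87 in the controls and from 1.96 to 4.03 (median 3.11) in the neutron mice, and rose by 1.71 ± 0.37 (SE). No control reached the lowest neutron mouse for either gene. Kel, the Kell blood group protein, was at 0.33, 1.20, 0.93, 1.40 and 1.44 against 1.72 to 3.29 (median 2.51) and rose by 1.44 ± 0.30 (SE). Epb42, which anchors the red cell skeleton to the membrane, lay from -0.45 to 0.29 in the controls and from 0.35 to 2.05 in the neutron mice and rose by 1.57 ± 0.31 (SE). For Epb42 the gap between the groups was narrow. Icam4, the Landsteiner-Wiener blood group protein, lay from -3.48 to -2.76 and from -2.50 to -1.03 and rose by 1.22 ± 0.26 (SE; limma, adjusted p = 0.0492 for each of the 5).

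The promoters of these 5 genes are shown around the letters AGATAA (or TTATCT, the same letters on the other strand), the core bound by GATA factors such as the erythroid Gata1. They are RefSeq sequences on build GRCm38.p6, read along the gene's strand, with the motif in capitals. Alas2, whose level did not differ, is shown beside them.
Trim10, chr17:36869386-36869441, plus strand: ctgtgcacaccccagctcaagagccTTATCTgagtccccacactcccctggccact
Rhd, chr4:134864468-134864523, plus strand: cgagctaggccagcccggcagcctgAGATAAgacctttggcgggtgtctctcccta
Kel, chr6:41704351-41704406, minus strand: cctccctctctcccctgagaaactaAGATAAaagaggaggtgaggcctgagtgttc
Epb42, chr2:121037073-121037127, minus strand: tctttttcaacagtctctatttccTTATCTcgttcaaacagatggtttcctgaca
Icam4, chr9:21029364-21029419, plus strand: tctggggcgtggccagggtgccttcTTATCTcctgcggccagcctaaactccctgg
Alas2, chrX:150547306-150547361, plus strand: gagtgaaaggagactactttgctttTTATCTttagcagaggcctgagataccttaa

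The motif began 163 bases before the start site in Trim10, 43 in Rhd, 56 in Kel, 226 in Epb42, 43 in Icam4 and 86 in Alas2. Its letters were in 11.18% of 32851 mouse promoters of the same length. Counted by gene, over any promoter of the gene, they were in 12.7% of 27025 genes. By the same count they were in 8 of the 20 tested red cell membrane genes with a promoter sequence, 2 of 13 heme genes and 2 of 9 erythroid regulators. They were also in 3 of 8 MHC class II genes, a list with negative differences, and in 1 of 21 B cell markers. A match of letters is a description, and binding was not measured.

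Ahsp, the chaperone of free alpha globin, was at 4.55, 5.16, 4.47, 4.96 and 4.54 in the controls and from 5.44 to 7.36 (median 6.85) in the neutron mice and rose by 1.84 ± 0.38 (SE), or 3.59-fold. Of 18 genes of heme synthesis and breakdown, 17 were positive (median 0.58) and 2 were called (0.543% of all genes were called higher). The median was 0.31 within scan day 1. Of the called genes, Urod, uroporphyrinogen decarboxylase, was at 3.74, 4.23, 3.83, 3.97 and 3.79 against 4.36 to 5.47 (median 5.00) and rose by 1.06 ± 0.23 (SE; limma, adjusted p = 0.0492, as for Ahsp). The mean level of the 18 heme genes did not overlap between the groups, with 2.06 to 2.58 in the controls and 2.67 to 3.08 in the neutron mice. The first enzyme of that pathway, Alas2, was at 9.33, 10.35, 10.20, 10.26 and 9.80 in the controls and from 9.52 to 11.16 (median 9.74) in the neutron mice, a difference of -0.02 ± 0.31 (SE; adjusted p = 0.967).

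Globins gave no call among 8, with a median of 0.04 that turned to -0.12 with quantile normalization and -0.21 with spike-in scaling, after a step in which globin RNA was reduced before labelling. The embryonic Hbb-y differed by 1.37 ± 0.32 (SE; adjusted p = 0.0545) with no overlap between the groups, and the adult Hbb-b1 by -0.39 ± 0.36 (SE; adjusted p = 0.503). The 25 genes of ubiquitin and organelle clearance in reticulocytes had a median of 0.71 with 22 positive and none called, and the median was 0.32 within scan day 1 and 0.85 on the other scan days. Fbxo9, an F-box protein, differed by 1.07 ± 0.26 (SE; adjusted p = 0.0574) without overlap. The other tested erythroid regulators, 11 beside Ahsp, gave no call.

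**Figure D3:**
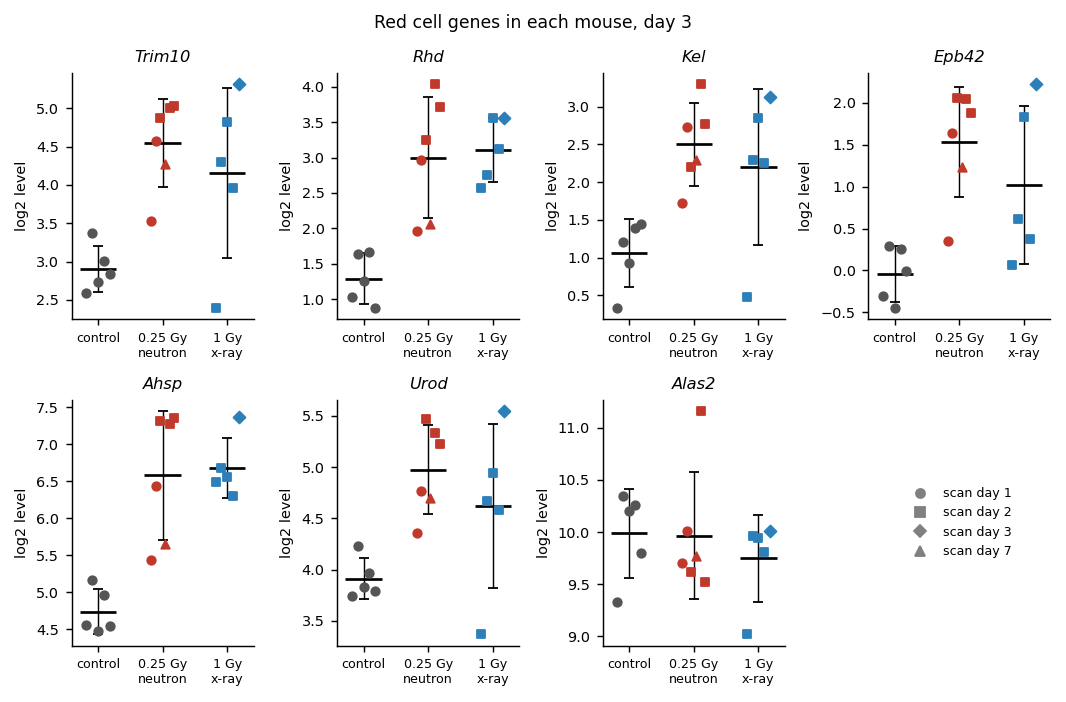
Log2 level (relative to the array median) of 7 red cell genes in each day 3 mouse, for 5 controls, 6 neutron mice and 5 x-ray mice; marker shape gives the scan day, the line the mean and the bar the SD. The 6 neutron mice lie above all controls for 6 of the genes, while for Alas2 the groups overlap.

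Mitochondrial and metabolic genes were higher in part. All 50 tested subunits of oxidative phosphorylation were positive, with a median of 0.49 and a range from 0.05 to 1.09. In 10 of them all neutron mice were above all controls (1.97% of all genes), and 3 were called (0.543% of all genes were called higher). Atp5k, a subunit of ATP synthase, was at 4.76, 5.21, 4.98, 4.83 and 4.70 in the controls and from 5.56 to 6.44 (median 6.00) in the neutron mice and rose by 1.09 ± 0.20 (SE). Ndufa4, a small subunit of the respiratory chain, rose by 0.99 ± 0.19 (SE) and Cox7b, a subunit of cytochrome c oxidase, by 0.87 ± 0.18 (SE; limma, adjusted p = 0.0492 for each). The median of the 50 was 0.45 within scan day 1 and 0.22 with the liver covariate. Under the scaling on spike-in probes the median of the 50 was 0.20, against -0.29 for all genes.

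Among 30 antioxidant and glutathione genes, 28 were positive (median 0.67) and 8 lay higher without overlap (1.97% of all genes). Of the 30, 1 was called, Mgst3 (0.543% of all genes were called higher). The median was 0.44 with the liver covariate. Mgst3, a microsomal glutathione transferase, was at 0.27, 0.92, 0.54, 0.72 and 0.28 in the controls and from 1.27 to 3.08 (median 2.41) in the neutron mice, and rose by 1.70 ± 0.33 (SE). The called genes that follow are outside that list. Chac2, which breaks down glutathione, lay from -0.10 to 1.39 and from 1.65 to 3.46 and rose by 1.72 ± 0.36 (SE). Acmsd, an enzyme of tryptophan breakdown, was at -1.29, -0.24, -0.49, -0.47 and -0.71 in the controls and from 0.47 to 1.76 (median 0.99) in the neutron mice and rose by 1.73 ± 0.28 (SE). A transcript that the files describe as thioredoxin reductase 2 (ENSMUST00000115604) rose by 1.65 ± 0.32 (SE), and Apol10a, of the apolipoprotein L family, by 1.96 ± 0.29 (SE; limma, adjusted p = 0.0492 for each). Of these, Apol10a was at -0.95, -1.65, -2.11, -1.26 and -1.35 in the controls and from -0.41 to 1.00 in the neutron mice.

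Fatty acid oxidation (24 genes, median 0.79) and sterol synthesis (22 genes, median 0.82) had no called member, and their medians moved to 0.09 and 0.17 with the liver covariate. Cpt2, a carnitine palmitoyltransferase, was at 1.75 and 1.16 in control replicates 2 and 3, those with the most liver RNA, and between 0.67 and 0.78 in the other 3, against 1.29 to 3.18 in the neutron mice. The 12 liver transcripts tested had a median of 4.49 and no call, with Apoc3 at 6.00 ± 1.75 (SE; adjusted p = 0.085), and 7 acute-phase genes had a median of 1.72 and no call. The part of liver RNA in the metabolic differences was not tested beyond the covariate.

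**Figure D4:**
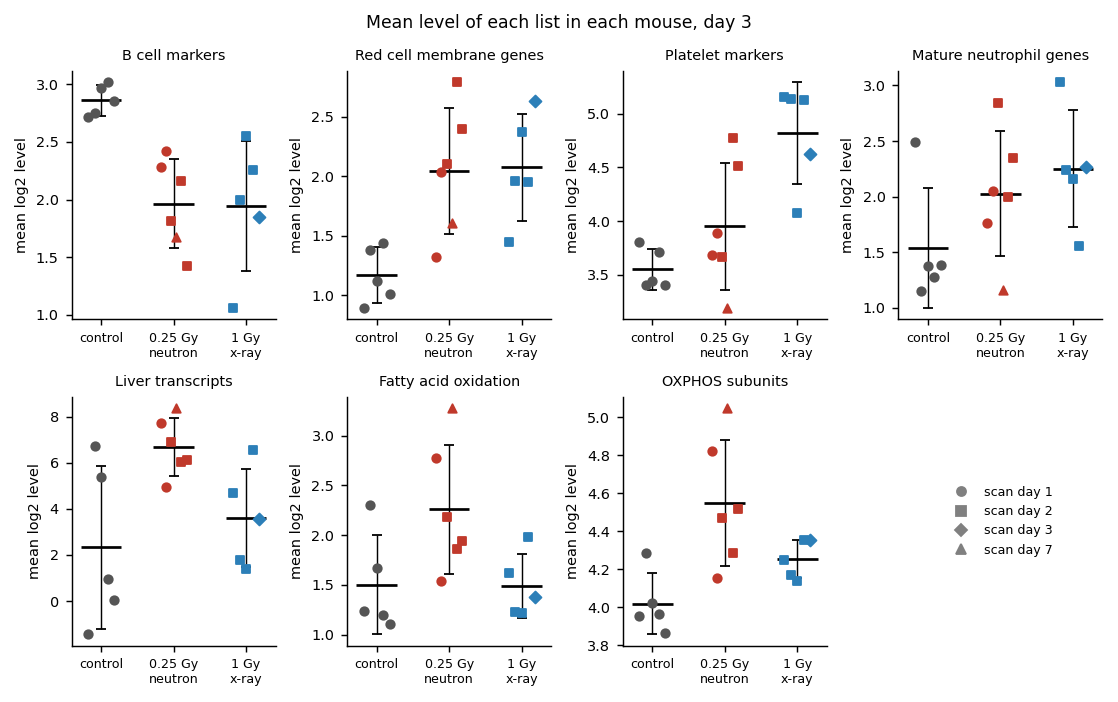
Mean log2 level of the tested members of 7 gene lists in each day 3 mouse, for 5 controls, 6 neutron mice and 5 x-ray mice; marker shape gives the scan day, the line the mean and the bar the SD. B cell markers of the neutron mice do not overlap the controls; liver transcripts range from -1.45 to 6.74 in the controls and from 4.94 to 8.36 in the neutron mice.

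The p53 pathway, through which damaged cells arrest or die, gave no call. The 13 tested targets of arrest and feedback had a median of 0.39 with 9 positive, and the 9 apoptosis targets 0.22, which turned to -0.10 and -0.17 with the scaling on spike-in probes. Within scan day 1 the median of the arrest and feedback targets was 0.25. With the liver covariate it was 0.44, with 10 of 13 positive and 4 higher at an unadjusted p below 0.05 (6.25% of all genes). The median of the apoptosis targets was 0.09 with the liver covariate, with 1 of 9 higher at that limit. Cdkn1a, the p21 inhibitor of cyclin-dependent kinases, was at -2.12, -3.49, -3.70, -3.80 and -1.40 in the controls and from -1.96 to -0.57 (median -1.74) in the neutron mice. The controls of Cdkn1a spread more than the neutron mice, and the difference was 1.40 ± 0.45 (SE; adjusted p = 0.0929). Phlda3, an inhibitor of Akt, differed by 0.90 ± 0.23 (SE; adjusted p = 0.0674) and Psrc1 by 0.87 ± 0.23 (SE; adjusted p = 0.0772). Ccng1 differed by 0.39 ± 0.17, Zmat3 by 0.23 ± 0.21, Aen by 0.02 ± 0.18, the pore-forming Bax by -0.03 ± 0.20 and the membrane protein Perp by 2.45 ± 0.72 (SE; adjusted p from 0.085 to 0.958), and Perp was at 0.52 with the liver covariate. Ddb2, a damage-recognition protein, was lower in all 6 neutron mice than in any control, at -0.58 ± 0.17 (SE; adjusted p = 0.085). With the liver covariate Cdkn1a was at 2.03, Phlda3 at 1.28, Psrc1 at 1.30, Ccng1 at 0.56 and Zmat3 at 0.51. Bax was at 0.05, Aen at 0.01 and Ddb2 at -0.47 in that fit. Mdm2, Eda2r, Trp53inp1 and Sesn2 did not pass the filters.

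Of 29 mitosis genes 22 were positive, with a median of 0.38 and no call. The median was 0.12 within scan day 1 and 0.70 with the liver covariate, where 27 were positive and 13 had an unadjusted p below 0.05 (6.25% of all genes were higher at that limit). Ccnb2, cyclin B2, was at 0.50, 0.13, 0.31, 0.46 and 0.60 in the controls and from 0.81 to 2.04 (median 1.52) in the neutron mice, a difference of 1.10 ± 0.25 (SE; adjusted p = 0.0539) without overlap. Ccna2 differed by 1.09 ± 0.32, Ube2c by 1.00 ± 0.34, Nusap1 by 0.99 ± 0.36, Cdc25b by 0.73 ± 0.36, Fzr1 by 0.90 ± 0.29 and E2f2 by 0.59 ± 0.29 (SE), none of them called. Bcl2l1, the survival gene of maturing red cells, differed by 0.92 ± 0.34 (SE; adjusted p = 0.122) and Bcl2 by -0.57 ± 0.20 (SE; adjusted p = 0.107). Of 59 cytosolic ribosomal protein genes 53 were negative, with a median of -0.21 and none called.

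Outside the lists, 3 further features were among the largest decreases. Rnu2-10, a U2 small nuclear RNA, was at -0.70, -0.30, -0.52, -0.30 and -0.01 in the controls and from -2.53 to -1.0 (median -2.15) in the neutron mice and fell by 1.58 ± 0.27 (SE). BC049265 fell by 1.58 ± 0.32 (SE) and the unnamed probe A_55_P2012869 by 1.34 ± 0.26 (SE; limma, adjusted p = 0.0492 for each). BC049265 was at 0.74 in control replicate 5 and from -0.37 to -0.08 in the other controls, against -2.18 to -0.49.

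The 1 Gy x-ray mice of the same day were set directly against the neutron mice, since the shared controls make their own differences no second test. No gene was called in that comparison, 10 had an unadjusted p below 0.001 (0.0921%) and 1208 below 0.05 (11.1%). Scan day and liver RNA also differed between these groups. X-ray replicates 1 to 4 were scanned on scan day 2 and replicate 5 on scan day 3. Liver transcripts summed to 120 to 3970 (median 402) in the x-ray mice, against 1275 to 9974 (median 3427) in the neutron mice. All 12 tested liver transcripts were higher in the neutron mice at an unadjusted p below 0.05. Against the controls, 217 genes (2%) were called after x-rays. No x-ray array shared a scan day with the controls, so the x-ray differences from the controls cannot be told apart from scan day. The median of the B cell markers was -0.89 after x-rays and -1.0 after neutrons, that of MHC class II -1.05 and -0.94, and that of red cell membrane genes 1.01 and 0.88. In the direct comparison, the median of the B cell markers was 0.01 and that of the red cell membrane genes 0.04, with 3 and 2 members lower in the neutron mice at an unadjusted p below 0.05.

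Platelet and megakaryocyte genes, which report on cell fragments released by the marrow, had higher values in the x-ray mice than in the neutron mice. Their mean log2 level was 3.40 to 3.80 in the controls, 3.19 to 4.77 (median 3.78) in the neutron mice and 4.08 to 5.15 (median 5.13) in the x-ray mice. The median over 26 genes was 0.39 against the controls after neutrons and 1.29 after x-rays. The neutron value was 0.25 within scan day 1 and 0.74 with the liver covariate. Set directly against the x-ray mice, 16 of the 26 were lower in the neutron mice at an unadjusted p below 0.05 (5.29% of all genes) with a median of -0.84, and none was called. Gp1bb, a chain of the von Willebrand factor receptor, lay from 2.24 to 3.69 in the neutron mice and from 3.02 to 4.67 in the x-ray mice. Neutron and x-ray doses differ, so the values do not compare the radiations at 1 dose. Scan day and liver RNA differed between these groups as well, as given above. The x-ray mice shared no scan day with the controls either.

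The same neutron dose had been followed at day 1 and day 7 against controls of those days. The B cell markers had a median of -0.93 at day 1, -1.0 at day 3 and -0.09 at day 7. The 56 immunoglobulin probes described above had medians of -0.86, -1.0 and -0.14. Red cell membrane genes had medians of -0.21, 0.88 and 0.47, and reticulocyte clearance genes of -0.17, 0.71 and 0.58. The p53 targets of arrest and feedback had medians of 0.64, 0.39 and -0.10. At day 1, 1 gene was called (0.00921%) and at day 7, 3 (0.0276%).

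**Figure D5:**
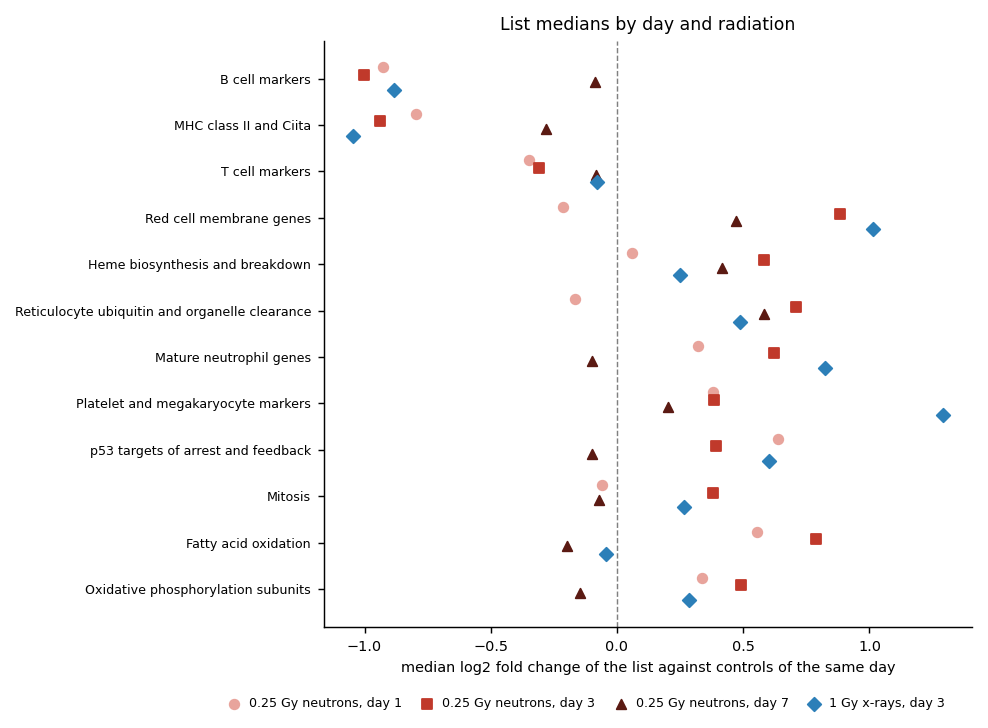
Median log2 fold change of 12 gene lists against controls of the same day after 0.25 Gy of neutrons at days 1, 3 and 7 and after 1 Gy of x-rays at day 3. B cell markers lie near -1 at days 1 and 3 and at -0.09 at day 7, and red cell membrane genes pass from -0.21 at day 1 to 0.88 at day 3.

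The change in the neutron effect between days was tested in a fit of 4 groups. Day 3 minus day 1, no gene was called, although 25 had an unadjusted p below 0.001 (0.23%), all higher at day 3, and 705 below 0.05 (6.49%). Day 3 minus day 7, 233 genes were called (2.14%), 14 higher at day 3 and 219 lower. Among the B cell markers 4 of 27 were called lower (2.02% of all genes): Ebf1, whose effect was -1.12 at day 3 and 0.13 at day 7, differed by -1.25 ± 0.28 (SE; limma, adjusted p = 0.0298), Ms4a1 by -1.17 ± 0.30 (SE; adjusted p = 0.0439) and Blnk by -1.08 ± 0.27 (SE; adjusted p = 0.0413). IgD (ENSMUST00000192250) was at -1.58 at day 3 and 0.33 at day 7, and the effects differed by -1.91 ± 0.34 (SE; adjusted p = 0.0121). Psrc1, a p53 target at the mitotic spindle, was at 0.87 at day 3 and -0.35 at day 7, a difference of 1.22 ± 0.31 (SE; adjusted p = 0.0402). The count between day 3 and day 7 went from 16 (without neutron replicate 5 of day 7) to 401 (without neutron replicate 5 of day 3) when single mice were left out. The controls and neutron mice of day 1 were all scanned on scan day 3 and those of day 7 on scan day 5. At day 3 scan day moved with the groups, as given above, so it enters the day 3 effect alone. For day 3 minus day 7, its part was not tested beyond the blocks given below. Slide also differed between those days, and the liver transcripts of the day 7 mice summed to 20.8 to 151.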

How the data were processed

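The 72 arrays of mouse blood RNA, labelled with Cy3, were scanned and extracted with Agilent Feature Extraction 12.0.2, per the labels. The deposited arrays hold intensities for 43020 transcript spots and 39429 different probes. The deposited table of log2 values normalized by the authors was used only to find which array each column follows: 0 of 5 control columns and 2 of 6 neutron columns of day 3 followed their own array, so it gave no value here. According to the methods, the authors took log2 intensities in BRB-ArrayTools with median normalization. The members and gene lists were chosen with earlier results of these data known.

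Here the processed intensity was taken as log2, averaged over the spots of a probe without control or outlier spots, and centred on each array's median over the detected probes. Probes with an outlier or dim spot on 25% or more of the arrays of days 1 and 7 were left out (19808 kept), as were those without a 1.5-fold departure in 20% of those arrays (12556 kept), which follows the study's filter, and the brightest probe stood for each gene (10863). Gene names came from the array's accessions through RefSeq tables (28330 probes; 1403 names changed). Each comparison was fitted on its own groups with limma 3.58.1 in R 4.3.3 (lmFit and eBayes, 2-sided). The named genes were, by rule, the 10 largest called rises and falls whose groups do not overlap, the called members of each list or otherwise the 2 of smallest p, a set of p53, cycle and B cell genes, and the largest rise and fall of each other comparison. Some of these genes are not reported here. The code was tested on simulated data. The number of arrays limits the precision. The p-values rest on the spread between arrays of 1 mouse each, in which scan day, slide and liver RNA also vary.

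Alternatives covered background correction, scaling, filters, probe choice, the random variance test, left-out mice, replicate number, scan day and slide; the liver covariate, the arrays of scan day 1 alone and left-out mice for the list medians were added after the data were seen.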

Additional observations from a re-analysis of the deposited data

Results flagged for a closer look

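Single mice stood apart within their group in 14 of 270 tests of gene or list levels (5.19%), where chance marks about 1 in 20. Among the neutron mice, replicate 5 was highest for Alas2, at a log2 level of 11.16, and for the mean of the iron uptake and storage genes, at 3.56, and replicate 4, the array of scan day 7 on which 1.99% of spots were outliers, was lowest for the T cell markers, at 1.43, and the cytosolic ribosomal protein genes, at 7.24. Among the controls, replicate 1 was lowest for Cd79a, at 4.83, and for the muscle transcripts, at -3.16, and highest for Cdca3, at -0.018, the neutrophil granule proteins, at 2.44, and the mature neutrophil genes, at 2.49. Control replicate 5 was lowest for Hbb-y, at -0.57, for Gm5106, at 0.39, and for the BCL2 family, at 0.89, and highest for BC049265, at 0.74, and the dendritic cell markers, at 1.61.

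The neutron effect differed between day 3 and day 7 for 233 genes (limma, each at an adjusted p under 0.05). Scan day moved with the groups at day 3 but not at day 7. Among the features described above, day 3 minus day 7 came to -1.25 for Ebf1, -1.08 for Blnk, -1.17 for Ms4a1, -1.91 for ENSMUST00000192250, -1.53 for ENSMUST00000193893 and -1.49 for ENSMUST00000103538. It was 1.08 for Atp5k and 1.22 for Psrc1. Rnu2-10 (-2.17), BC049265 (-2.92) and A_55_P2012869 (-2.75) were lower than their controls at day 3. At day 7 they differed from their controls by 0.59 ± 0.33, 1.34 ± 0.37 and 1.41 ± 0.52 (SE). The most negative value of day 3 minus day 7 among the 233 genes was that of Gm5106, at -8.30, with an effect of -3.47 at day 3 and 4.83 at day 7. Its day 3 controls lay between 0.39 and 6.28 and neutron mice between -2.22 and 4.23.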

How the results depend on the processing

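The number of arrays and their signal over background limit these results. With 5 and 6 mice and an adjusted p of 0.0492 for the 127 called genes, the count of calls moved under most alternatives. The direction of those genes did not, except for 1 of 124 tested after normexp. For 122 of the 127 the groups did not overlap, so their direction could not change without 1 mouse or on scan day 1 alone. Called genes, neutrons against controls, numbered 200 with quantile normalization, 242 with the 75th percentile, 273 with the spike-in probes and 247 without the fold filter; 1 without any filter; and 0 after normexp (19 at an unadjusted p below 0.001), with the detection filter on the compared arrays (67), with the scan day (2) or slide (89) as a block, with scan day (26) or slide (63) as a random block, with the liver covariate (14) and on scan day 1 alone (1). Of the 127 genes, 23 were still called with the spike-in probes, so the 273 were largely other genes. With quantile normalization 121 were still called, with the 75th percentile 127 and without the fold filter 127. Leaving out 1 mouse gave 0 to 279 called genes and 74 to 279 at an unadjusted p below 0.001. The cause was not tested.

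The deviations of same-numbered neutron and control mice had correlations from -0.53 to -0.14, and the labels give no pairing beyond the number. With the replicate number as a block 0 genes were called and 8 had an unadjusted p below 0.001. Calls with that block numbered 208 against the x-ray mice and 4 for day 3 minus day 7. Against the x-ray mice, calls numbered 272 with the spike-in probes, 1 with the slide as a block and 0 to 58 without 1 mouse, the 58 without x-ray replicate 4. For day 3 minus day 1, 1 gene was called with dim spots missing, and 0 to 1 without 1 mouse. For day 3 minus day 7, 1 was called after normexp, 368 with the spike-in probes, 27 without filters, 1 with scan day and 0 with slide as a block, 10 and 5 with these as random blocks, and 16 to 401 without 1 mouse. The median of the B cell markers was -0.49 and that of the red cell membrane genes 0.47 on scan day 1 alone; without 1 mouse they ranged from -1.09 to -0.86 and from 0.72 to 1.01. Neutrons minus controls, the share of spots above background differed by -0.746 percentage points and the median intensity by 11.2.

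Genes near 0 or far apart among mice changed sign. Alas2 came to 0.0096 after normexp, 0.066 with the replicate block, 0.060 with the slide block and -0.26 to 0.068 without 1 mouse. Bax came to 0.0018 after normexp, 0.29 and 0.061 with slide as a fixed and random block, 0.053 with the liver covariate and -0.13 to 0.060 without 1 mouse. Aen came to -0.048, -0.063 and -0.23 with quantile, 75th percentile and spike-in scaling, -0.034 with the mean of probes, -0.11 and -0.0058 with slide as a fixed and random block and -0.041 to 0.076 without 1 mouse. With the slide as a block Cdkn1a was -0.35, Zmat3 -0.20, Gm5106 0.79, Hbb-b1 0.16 and ENSMUST00000103418 -0.55, and Zmat3 was -0.010 with the spike-in probes. Within scan day 1, and with scan day as a block, Hbb-b1 was 0.10, Jchain -0.15, ENSMUST00000195192 -0.25 and ENSMUST00000103418 -0.50, the last also -0.082 with scan day as a random block. The alternative from the authors' processed table was not run, since 0 control columns followed their own array.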
